A study of Mus musculus with 12 samples.

Results

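Cholesterol metabolism was examined in mouse dorsal epidermis through 30 genes of cholesterol synthesis, sterol sensing, uptake, transport and efflux. The study set mice labelled as double knockouts (DKO) of Vdr, which encodes the vitamin D receptor, and of Med1, which encodes a subunit of the Mediator complex that works with it, against control mice. The genes were taken from a list of the pathway, and their symbols were matched to the Entrez numbers of the deposited tables. All 30 had values at both ages, among 19392 genes with values at postnatal day 36 (P36) and 17750 at 6 months, and all 30 passed the filter on low values in each fit. There were 12 libraries in 4 groups of 3 on a C57BL/6 background. Both genotypes carried the floxed alleles Med1 fl/fl and VDR fl/fl. Control mice were K14 Cre-/- and DKO mice were K14 Cre+/-, with a recombinase driven by the keratin 14 promoter of basal keratinocytes, which limits the intended deletion to cells that have used that promoter. Each genotype was sampled at P36 and at 6 months, from epidermis lifted off the dermis after brief heating of the skin. Nothing in the labels says that replicates are separate animals, so the p-values cover the spread between these libraries, which may be technical.

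The epidermis makes much of its own cholesterol, since the water barrier of the cornified layer consists of cholesterol, ceramides and free fatty acids. Synthesis starts from acetyl-CoA, runs through mevalonate to farnesyl pyrophosphate, which also feeds protein prenylation, and continues through squalene and lanosterol to cholesterol. Sterols regulate the pathway through the transcription factor encoded by Srebf2: when sterols are low, Scap escorts it to the Golgi, where it is cut and released, and when sterols are high, Insig proteins hold both in the endoplasmic reticulum. Uptake, lysosomal release and efflux through ABC transporters complete the balance.

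Expression is given as FPKM, fragments scaled by gene length and by library size, so levels of different genes can be set side by side. Per library, FPKM values added up to 446617 to 554382 and between 12056 and 12760 genes were at 1 FPKM or more; the read depth is unknown. None of the 8 keratinocyte markers was at 0 in all 6 libraries of an age, and their summed level was 6711 to 18177 FPKM per library. Med1 had 13.9, 14.2 and 13.2 FPKM in the control libraries and 10.3, 8.78 and 8.20 in those labelled DKO at P36, and 16.7, 13.1 and 12.7 and 11.6, 11.4 and 11.9 FPKM at 6 months. Vdr had 65.8, 65.5 and 72.8 and 87.3, 86.7 and 76.5 FPKM at P36, and 53.5, 31.4 and 36.7 and 49.3, 42.1 and 52.9 FPKM at 6 months. Med1 was called lower at P36 (means 13.8 against 9.11 FPKM; limma adjusted p = 0.0083) and not at 6 months (adjusted p = 0.13). Vdr was not called at either age (log2 fold changes 0.29 and 0.27, limma adjusted p = 0.0573 and 0.302). These values cover whole genes, and the floxed exons alone were not analysed here. Because Vdr was not lower, the text speaks of libraries labelled DKO, and every direction below rests on that label. A change in a bulk sample can come from a change in the number of cells of a type or in RNA per cell, and these cannot be told apart.

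Promoter windows show which sequence elements the members share. A RefSeq table on GRCm38.p6 held windows for 23 of the 30 members, 15 of them among the 18 synthesis genes, and the 250 bases before the transcription start were searched on both strands. CCAAT, the letters bound by nuclear factor Y, a known partner of sterol-regulated transcription, was found in 14 of 15 synthesis genes and 19 of 23 members, against 37.5% of all 27025 genes with a window and 40.3% of the 10115 of them tested at P36. GGGCGG, the GC box, was found in 14 of 15 and 21 of 23, against 35.4% and 63.0%. TCACNCCAC, a form of the sterol response element, was found in 1 member, Hmgcs1, against 1.22% of all genes. A direct repeat of AGGTCA with 3 bases between the copies is a form known to bind the vitamin D receptor. One with 4 bases between is a form known to bind liver X receptors. These exact repeats were found in 0 of 23 members and in 0.0074% and 0.0148% of all genes. With repeats that rare, 0 of 23 says nothing about binding by these receptors. CACGTG was found in 6 of 23 members, against 6.86% of all genes and 9.82% of those tested at P36. Shown are the 150 bases before the start for Hmgcs1, the member with TCACNCCAC, for 4 members that rose at both ages and for Srebf2, which fell at 6 months, 5′ to 3′ on the gene's strand, with the first 3 of these motifs, on either strand, in capitals.
Hmgcs1 (chr13:119690201-119690350, plus strand): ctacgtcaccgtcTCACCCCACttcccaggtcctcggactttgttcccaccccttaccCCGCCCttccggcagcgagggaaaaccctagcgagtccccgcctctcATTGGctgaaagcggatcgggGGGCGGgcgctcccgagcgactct
Idi1 (chr13:8885456-8885605, plus strand): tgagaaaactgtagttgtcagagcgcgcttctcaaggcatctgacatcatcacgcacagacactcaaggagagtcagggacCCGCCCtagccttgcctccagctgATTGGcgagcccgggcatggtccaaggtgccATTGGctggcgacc
Cyp51 (chr5:4104698-4104847, minus strand): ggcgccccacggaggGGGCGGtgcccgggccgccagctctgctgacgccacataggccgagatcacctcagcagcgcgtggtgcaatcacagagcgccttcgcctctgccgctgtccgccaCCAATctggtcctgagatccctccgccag
Msmo1 (chr8:64733579-64733728, minus strand): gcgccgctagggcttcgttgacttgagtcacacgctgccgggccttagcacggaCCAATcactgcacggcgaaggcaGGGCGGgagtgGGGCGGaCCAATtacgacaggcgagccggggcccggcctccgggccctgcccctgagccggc
Hsd17b7 (chr1:169969206-169969355, minus strand): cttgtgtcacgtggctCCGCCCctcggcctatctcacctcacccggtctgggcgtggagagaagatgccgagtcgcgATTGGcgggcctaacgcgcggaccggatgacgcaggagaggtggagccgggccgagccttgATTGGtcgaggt
Srebf2 (chr15:82147119-82147268, plus strand): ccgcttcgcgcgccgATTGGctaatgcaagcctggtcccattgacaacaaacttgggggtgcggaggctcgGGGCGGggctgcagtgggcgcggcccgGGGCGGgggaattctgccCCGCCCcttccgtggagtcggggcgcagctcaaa
Each of the 6 stretches holds 1 or 2 copies of CCAAT and 1 to 3 of GGGCGG. In Hmgcs1 the sterol response element form lies upstream of the CCAAT copy, which is on the opposite strand. A match describes the letters in the window only, and the lack of one does not show that no site is there.

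At P36, genes of both arms of synthesis rose in the libraries labelled DKO, among them Acat2, Idi1, Msmo1 and Dhcr7. Of the 18 synthesis genes 12 rose and 0 fell, with a median log2 fold change of 0.62 beside 0.09 over all 12660 genes tested, 4 of 7 in the mevalonate arm and 8 of 11 in the sterol arm. Of all 30 members 16 rose and 0 fell, against 23.3% of all genes called in either direction, 18% higher and 5.32% lower. In 20 members, 16 of them synthesis genes, each library labelled DKO lay above each control library, and in 0 below, against 30% and 9.63% of all genes tested. The test was limma on log2(FPKM + 1), adjusted over all genes by the Benjamini-Hochberg method. With median-ratio scaling, under which the median over all genes went from 0.09 to −0.03 and the share of calls that were higher from 77.1% to 58.9%, 11 synthesis genes rose and 0 fell and their median was 0.49.

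**Figure D1:**
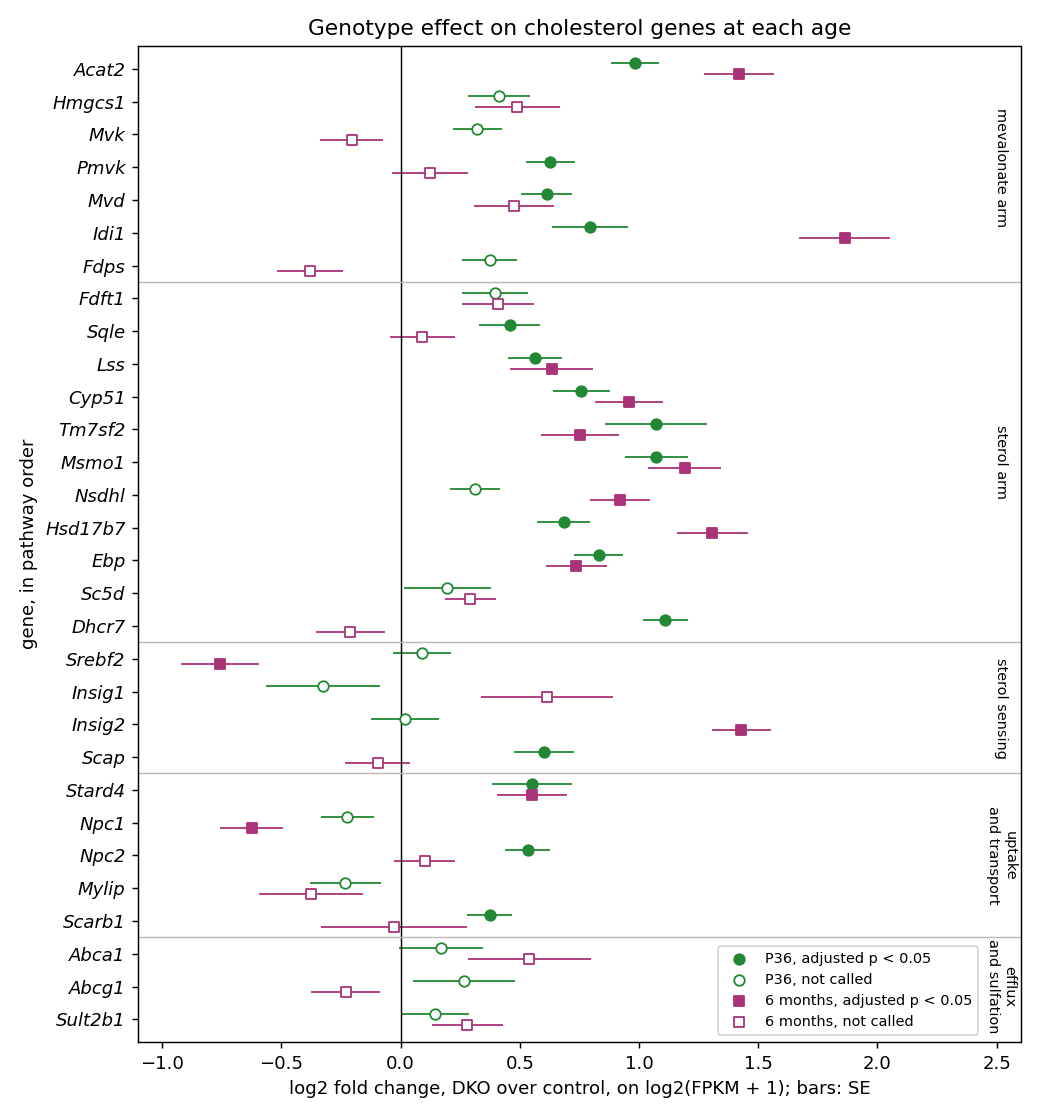
Genotype effect on each of the 30 genes, in pathway order from top to bottom. The x axis is the log2 fold change of the libraries labelled DKO over control on the log2(FPKM + 1) scale, bars are standard errors, circles are P36 and squares 6 months, and filled symbols passed an adjusted p of 0.05. All 18 synthesis genes lie right of 0 at P36, and at 6 months 3 of them, Mvk, Fdps and Dhcr7, lie left of it without being called.

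At 6 months, Idi1, Acat2, Hsd17b7 and Msmo1 rose by more than 1 on the log2 scale, while Srebf2 and Npc1 fell. Among the synthesis genes, 9 of 18 rose and 0 fell, and their median was 0.56 beside 0.04 over all 12594 genes tested, while 3 had a negative fold change. Of all 30 members 11 rose and 2 fell, against 41.3% of all genes called in either direction, 23.2% higher and 18.2% lower. The share of members called in either direction, 13 of 30, was thus close to the share of all genes. In 11 of the 18 synthesis genes the libraries labelled DKO lay above the controls without overlap and in 1, Fdps, below them; the shares among all genes tested were 31.8% and 24%. The sterol arm from squalene synthesis onward held 7 of the 9 rises. With keratin-free scaling, which leaves keratin and cornified envelope genes out of the library totals, the median over all genes went from 0.04 to −0.12 and the share of calls that were higher from 56% to 36.1%. Under it 8 synthesis genes rose and 1 fell, Fdps, and their median was 0.38.

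Called at both ages and in the same direction were 9 members, all higher: Acat2, Idi1, Lss, Cyp51, Tm7sf2, Msmo1, Hsd17b7, Ebp and Stard4. Among 12047 genes tested at both ages, 5% were called higher at both, 1.44% lower at both and 3.69% in opposite directions, the last 2 with 0 members. Each age has control libraries of its own. Insig2 and Nsdhl rose at 6 months only by call, Srebf2 and Npc1 fell at 6 months, and Pmvk, Mvd, Sqle, Dhcr7, Scap, Npc2 and Scarb1 rose at P36 and were not called at 6 months. Not called at either age were Hmgcs1, Mvk, Fdps, Fdft1, Sc5d, Insig1, Abca1, Abcg1, Mylip and Sult2b1. A call at one age and not at the other does not show a difference, which was tested on its own below.

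In the mevalonate arm, Acat2 and Idi1 rose at both ages. Acat2, the cytosolic thiolase that joins acetyl-CoA units, had 29.2, 29.6 and 24.4 FPKM in the control libraries at P36 and 53.5, 59.0 and 54.9 in those labelled DKO. At 6 months the values were 17.3, 20.8 and 19.8 in control and 56.5, 61.2 and 43.4 FPKM in the libraries labelled DKO. The groups were far apart at both ages, with log2 fold changes of 0.98 (SE 0.10, limma adjusted p = 0.000743) and 1.42 (SE 0.15, limma adjusted p = 0.000707). Idi1, the isomerase that makes the activated isoprene unit dimethylallyl pyrophosphate, stood at 49.4, 42.9 and 45.1 FPKM in control and 101, 63.8 and 79.5 in the libraries labelled DKO at P36. Its 6-month values were 77.3, 61.4 and 49.4 and 250.2, 253 and 185 FPKM. Each library labelled DKO exceeded every control library of its age, and the mean was 1.78 times the control mean at P36 and 3.66 times at 6 months (log2 fold changes 0.79, SE 0.16, and 1.86, SE 0.19; limma adjusted p = 0.00929 and 0.000704). The 6-month rise of Idi1 was the largest among the 30 members at either age.

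Mvk and Fdps were not called at either age. Mvk, the mevalonate kinase, had 43.05, 42.4 and 37.3 FPKM in control and 53.5, 45.8 and 55.1 in the libraries labelled DKO at P36, and 34.8, 41.4 and 37.8 and 38.8, 30.9 and 29.2 FPKM at 6 months. The P36 groups did not overlap, yet neither age was called (log2 fold change 0.32, limma adjusted p = 0.0597, and −0.21, adjusted p = 0.243). Fdps, the farnesyl pyrophosphate synthase at the branch point to prenylation, was the most abundant synthesis enzyme in control epidermis at P36, with 149, 163 and 147 FPKM, and had 217, 171 and 211 FPKM in the libraries labelled DKO. At 6 months control held 179.8, 219.6 and 188 FPKM and the libraries labelled DKO 162, 165 and 126. The groups did not overlap at either age but in opposite order, above control at P36 and below it at 6 months, and neither was called (log2 fold changes 0.37 and −0.38, limma adjusted p = 0.0506 and 0.0615). Fdps was called higher at P36 without DKO P36 replicate 2 (limma adjusted p = 0.0283), and lower at 6 months with keratin-free scaling (adjusted p = 0.0124) and in a joint fit of all 12 libraries (adjusted p = 0.0308).

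Of the other mevalonate genes, Pmvk and Mvd, the kinase and decarboxylase that follow Mvk, rose at P36 by 0.63 and 0.61 on the log2 scale (limma adjusted p = 0.00392 and 0.00568). Their 6-month means were 57.3 ± 7.08 and 62.96 ± 11.5 FPKM for Pmvk and 25.8 ± 5.75 and 35.9 ± 4.51 FPKM for Mvd (control and the libraries labelled DKO, SD, n = 3), with limma adjusted p = 0.557 and 0.0576. Mvd was called higher at 6 months without control 6mo replicate 2 (adjusted p = 0.0185), without DKO 6mo replicate 3 (0.0473) and in the joint fit (0.021). Hmgcs1, the cytosolic HMG-CoA synthase, averaged 93.5 and 126 FPKM at P36 and 169.5 and 239 FPKM at 6 months, with log2 fold changes of 0.41 (95% interval 0.11 to 0.71) and 0.49 (0.07 to 0.91), just outside the threshold (limma adjusted p = 0.0534 and 0.0631). It passed without DKO P36 replicate 2 (adjusted p = 0.0212), without control 6mo replicate 1 (0.0328), without DKO 6mo replicate 3 (0.0284) and at 6 months in the joint fit (0.03).

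Cyp51 and Msmo1, which act on lanosterol and its products, rose at both ages. Msmo1, the methylsterol monooxygenase, had 77.3, 58.1 and 77.1 FPKM in control and 159, 135 and 153 in the libraries labelled DKO at P36. At 6 months its values were 243, 214 and 176 and 465, 553 and 427 FPKM, which made it the most abundant of the 18 synthesis genes in both genotypes. The lowest library labelled DKO was above the highest control library at each age (log2 fold change 1.07, SE 0.13, limma adjusted p = 0.00138, and 1.19, SE 0.15, adjusted p = 0.00146). Cyp51, the lanosterol demethylase, gave 35.5, 28.5 and 32.8 FPKM in control and 61.6, 49.02 and 55.2 in the libraries labelled DKO at P36. It gave 64.9, 73.5 and 59.6 and 133, 149 and 107 FPKM at 6 months. Both ages were called, without overlap of the groups (log2 fold changes 0.76 and 0.96, limma adjusted p = 0.00348 and 0.00246).

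Nsdhl and Hsd17b7, which with Msmo1 remove the methyl groups of sterol position C4, both rose at 6 months. Hsd17b7, the ketosteroid reductase, had 14.1, 12.3 and 11.8 FPKM in control and 21.6, 18.8 and 22.96 in the libraries labelled DKO at P36, and 17.8, 13.2 and 12.3 and 37.02, 39.7 and 33.6 FPKM at 6 months. Its mean rose to 1.65 and 2.55 times the control mean (log2 fold changes 0.68, SE 0.11, and 1.31, SE 0.15; limma adjusted p = 0.00406 and 0.000996). Nsdhl, the dehydrogenase of the same complex, stood at 35.3, 33.9 and 30.6 FPKM in control and 45.3, 36.7 and 42.8 in the libraries labelled DKO at P36. It stood at 32.1, 37.04 and 32.1 and 66.8, 72.8 and 55.3 FPKM at 6 months. The 6-month groups were wide apart and called (log2 fold change 0.92, SE 0.13, limma adjusted p = 0.0018), while at P36 the groups were close, without overlap and without a call (0.31, adjusted p = 0.0708).

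**Figure D2:**
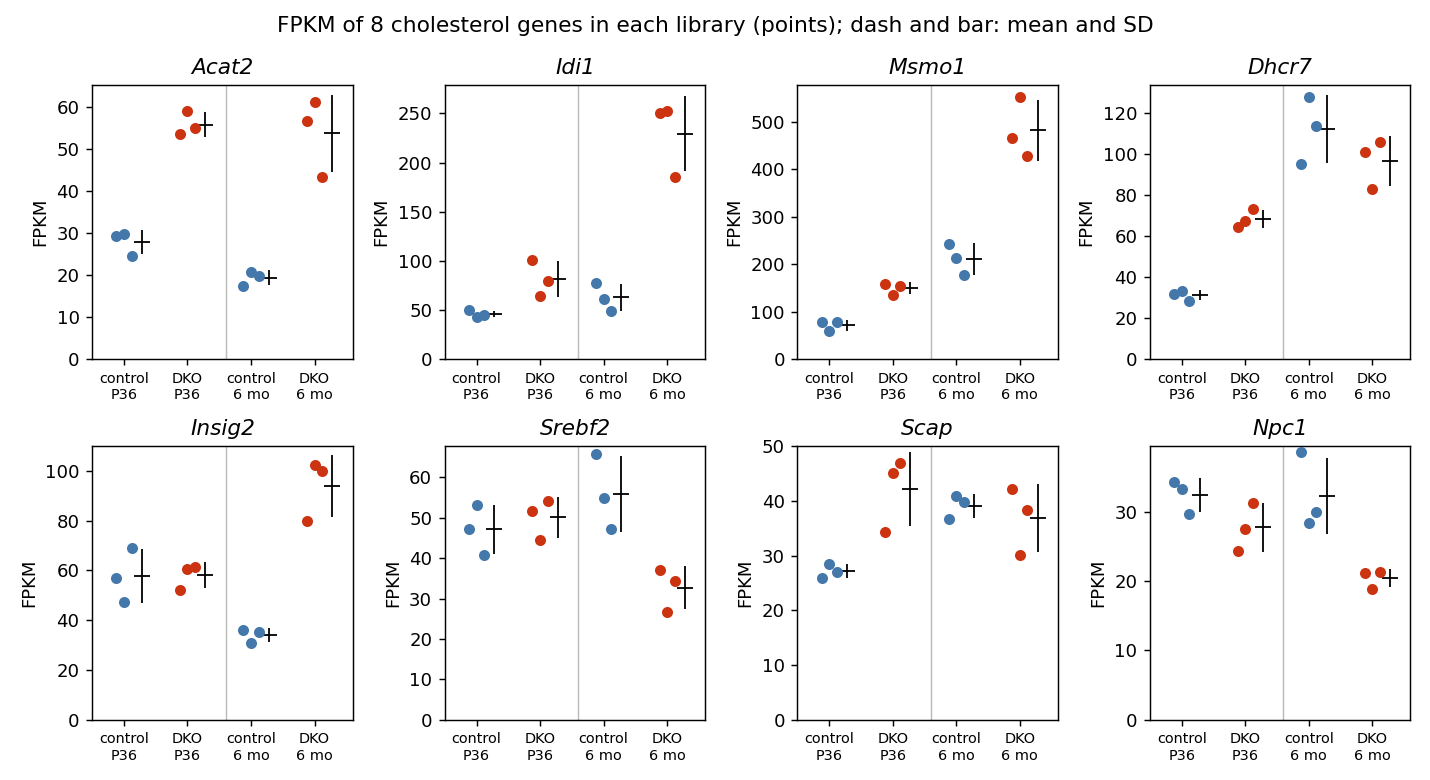
FPKM of 8 members in each of the 12 libraries. Each panel is a gene, the y axis is FPKM from 0, blue points are control and red points are libraries labelled DKO, and the dash and bar beside each group are the mean and SD of 3 libraries. Acat2, Idi1 and Msmo1 are higher in the red points at both ages, Dhcr7 and Scap at P36, Insig2 at 6 months, while Srebf2 and Npc1 are lower at 6 months.

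Ebp, Tm7sf2 and Lss were also called at both ages. Ebp, the sterol isomerase, had 23.7, 25.1 and 27.3 FPKM in control and 42.5, 51.2 and 44.1 in the libraries labelled DKO at P36, and 21.98, 29.2 and 25.6 and 46.6, 44.3 and 38.6 FPKM at 6 months. Its groups were separate at both ages (log2 fold changes 0.83 and 0.74, limma adjusted p = 0.0014 and 0.00447). Tm7sf2, a sterol reductase whose step the lamin B receptor can also carry out, was the least abundant synthesis gene, with 9.06, 9.20 and 4.80 FPKM in control and 15.3, 18.1 and 16.8 in the libraries labelled DKO at P36. At 6 months Tm7sf2 had 7.28, 10.8 and 8.63 and 17.3, 16.4 and 13.2 FPKM. Control P36 replicate 3 was low for this gene, and the groups did not overlap at either age (log2 fold changes 1.07 and 0.75, limma adjusted p = 0.00919 and 0.0101).

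Lss, the lanosterol synthase that closes the ring system, had 14.5, 12.4 and 11.6 FPKM in control and 19.3, 17.8 and 21.2 in the libraries labelled DKO at P36, and 14.6, 13.4 and 11.1 and 26.3, 19.5 and 17.2 FPKM at 6 months. It was called at both ages (log2 fold changes 0.57 and 0.63, limma adjusted p = 0.00931 and 0.0244), without overlap of the groups. The 6-month call did not hold without control 6mo replicate 2 (adjusted p = 0.0565) or replicate 3 (0.0785), without DKO 6mo replicate 1 (0.0589) or replicate 2 (0.0585), and with keratin-free scaling (0.0875).

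Dhcr7, the dehydrocholesterol reductase of the last step, whose substrate is also the precursor from which skin makes vitamin D, rose at P36 and did not at 6 months. It had 31.8, 32.97 and 28.4 FPKM in control and 64.4, 67.02 and 73.02 in the libraries labelled DKO at P36. At 6 months it had 94.9, 128 and 113 FPKM in control and 101, 82.6 and 106 in the libraries labelled DKO. The P36 groups were far apart (log2 fold change 1.11, SE 0.09, limma adjusted p = 0.000474), whereas the 6-month groups overlapped and had a negative fold change (−0.21, 95% interval −0.55 to 0.13, adjusted p = 0.275). The control level at 6 months was above that of the P36 libraries of either genotype; the ages are in separate tables, so levels across ages are set side by side without a test.

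Sqle rose at P36, and Fdft1 and Sc5d were not called at either age. Sqle, the squalene epoxidase, averaged 54.1 and 74.7 FPKM at P36 (log2 fold change 0.46, limma adjusted p = 0.0367) and 79.1 and 84.3 FPKM at 6 months (0.09, adjusted p = 0.618). The P36 call of Sqle was lost without control P36 replicate 2 (0.114) or replicate 3 (0.085), without DKO P36 replicate 1 (0.0957) or replicate 3 (0.112), with median-ratio scaling (0.115), with keratin-free scaling (0.085) and without a filter on low values (0.053). Fdft1, the squalene synthase, averaged 30.1 and 40.1 FPKM at P36 and 42.1 and 56.1 FPKM at 6 months, with fold changes of 0.40 and 0.41 that were not called (limma adjusted p = 0.0748 and 0.0656); it passed without DKO P36 replicate 2 (0.0445), without DKO 6mo replicate 3 (0.0337) and at 6 months in the joint fit (0.0468). Sc5d, the sterol desaturase before Dhcr7, averaged 21.5 and 25.1 FPKM at P36 and 40.2 and 49.6 FPKM at 6 months, and was not called (adjusted p = 0.507 and 0.0623; 0.0421 at 6 months without DKO 6mo replicate 1).

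Of the 4 sterol sensing genes, 1 rose and 0 fell at P36, and 1 rose and 1 fell at 6 months. Over all genes tested, 23.3% were called at P36 and 41.3% at 6 months. Insig2, an anchor that holds Scap in the endoplasmic reticulum, had 57.03, 47.4 and 69.02 FPKM in control and 51.99, 60.7 and 61.5 in the libraries labelled DKO at P36, and the groups lay on top of each other (log2 fold change 0.02, 95% interval −0.31 to 0.35). At 6 months it had 36.2, 30.9 and 35.2 FPKM in control and 79.7, 102 and 99.95 in the libraries labelled DKO. The lowest library labelled DKO was at 2.198 times the highest control library, and the rise was the most strongly called among the members at 6 months (1.43, SE 0.13, limma adjusted p = 0.0004). Insig1, the related anchor whose own gene is a known target of the Srebf2 protein, varied within groups. Its values were 62.6, 44.1 and 49.9 FPKM in control and 57.8, 28.7 and 41.5 in the libraries labelled DKO at P36, and 38.5, 20.1 and 18.6 and 30.9, 45.5 and 38.6 FPKM at 6 months. The groups overlapped at both ages and neither was called (log2 fold changes −0.32 and 0.62, limma adjusted p = 0.392 and 0.114). Control 6mo replicate 1 was the high control library, and without it Insig1 was called higher at 6 months (0.93, adjusted p = 0.00896).

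Srebf2, the sterol-regulated transcription factor, had 47.2, 53.2 and 40.9 FPKM in control and 51.8, 44.5 and 54.03 in the libraries labelled DKO at P36, with overlapping groups (log2 fold change 0.09, limma adjusted p = 0.661). At 6 months it had 65.9, 54.96 and 47.1 FPKM in control and 37.0, 26.8 and 34.3 in the libraries labelled DKO. It fell there, without overlap (−0.76, SE 0.16, adjusted p = 0.00998), in the same libraries in which 9 synthesis genes rose. Scap, the escort protein, had 25.96, 28.5 and 27.1 FPKM in control and 34.3, 45.1 and 46.9 in the libraries labelled DKO at P36. Its 6-month values were 36.6, 40.8 and 39.8 and 42.2, 30.1 and 38.2 FPKM. Scap rose at P36 (0.60, SE 0.13, adjusted p = 0.0115; 0.0519 without DKO P36 replicate 2) and was not called at 6 months (−0.10, adjusted p = 0.597).

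Among the uptake and transport genes, Stard4, Npc2 and Scarb1 rose at P36, while at 6 months Stard4 rose and Npc1 fell. Stard4, a carrier that moves cholesterol between membranes, had 8.37, 8.72 and 8.21 FPKM in control and 15.8, 9.52 and 13.9 in the libraries labelled DKO at P36, and 16.4, 15.7 and 12.8 and 20.9, 26.7 and 19.8 FPKM at 6 months. Its groups did not overlap, but DKO P36 replicate 2 was close to control (log2 fold changes 0.55 and 0.55, limma adjusted p = 0.0488 and 0.0222). The P36 call was lost without each of the 3 control libraries (adjusted p = 0.118, 0.0972 and 0.102), without DKO P36 replicate 1 (0.122) or replicate 3 (0.154), and with the filter at 5 FPKM (0.0504), no filter (0.0798), median-ratio scaling (0.0989) or keratin-free scaling (0.102). The 6-month call of Stard4 was lost without control 6mo replicate 3 (0.0724), without DKO 6mo replicate 2 (0.0585) and with keratin-free scaling (0.0805).

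Npc1, the membrane protein that exports cholesterol from lysosomes, had 34.3, 33.3 and 29.6 FPKM in control and 24.4, 27.5 and 31.3 in the libraries labelled DKO at P36, and 38.5, 28.4 and 29.9 and 21.1, 18.9 and 21.2 FPKM at 6 months. It fell at 6 months, where the highest library labelled DKO was below the lowest control library (log2 fold change −0.62, SE 0.13, limma adjusted p = 0.00941), and was not called at P36 (−0.22, adjusted p = 0.206). Npc2, its soluble partner that hands cholesterol over, rose at P36, from 36.7 ± 0.113 to 53.7 ± 5.62 FPKM (SD, n = 3; 0.53, adjusted p = 0.00611 by limma), and averaged 29.3 and 31.5 FPKM at 6 months (adjusted p = 0.552).

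Scarb1, a receptor that takes up cholesteryl esters from high density lipoprotein, averaged 32.5 and 42.4 FPKM at P36 and was called higher (log2 fold change 0.37, limma adjusted p = 0.0246). The call did not hold without control P36 replicate 1 (0.087) or replicate 2 (0.0696), without DKO P36 replicate 2 (0.0896) or replicate 3 (0.103), with median-ratio scaling (0.155), with keratin-free scaling (0.0514) and in the joint fit (0.34). At 6 months Scarb1 had 13.8, 12.8 and 18.1 FPKM in control and 11.3, 10.6 and 24.8 in the libraries labelled DKO, where replicate 3 stood above all other libraries of that age. Mylip, a ubiquitin ligase that sends lipoprotein receptors to degradation, averaged 22.6 and 18.9 FPKM at P36 and 19.5 and 14.3 FPKM at 6 months and was not called (limma adjusted p = 0.317 and 0.205). Mylip was called lower without control P36 replicate 3 (adjusted p = 0.0472) and without control 6mo replicate 1 (0.00593).

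None of the efflux and sulfation genes was called by limma at either age; at an unadjusted p below 0.05 there were 0 of 6 tests. Abca1 and Abcg1, the transporters that load cholesterol onto lipoproteins, had the lowest means of the 30 members in the libraries labelled DKO at P36 and in both genotypes at 6 months. Abca1 averaged 8.59 ± 1.79 and 9.78 ± 1.94 FPKM at P36 (SD, n = 3) and 7.79 ± 3.27 and 11.2 ± 0.207 FPKM at 6 months. Abcg1 averaged 5.05 and 6.05 FPKM at P36 and 6.53 and 5.36 FPKM at 6 months. Sult2b1, which makes the cholesterol sulfate of the cornified layer, averaged 107 and 119 FPKM at P36 and 78.3 and 94.6 FPKM at 6 months. The 95% intervals of their log2 fold changes reached from −0.24 to 0.57 at P36 and from −0.06 to 1.15 at 6 months for Abca1, from −0.23 to 0.76 and from −0.57 to 0.11 for Abcg1, and from −0.18 to 0.47 and from −0.07 to 0.63 for Sult2b1. Without control 6mo replicate 1, Abca1 was called higher (0.81, limma adjusted p = 0.0217) and Abcg1 lower (−0.36, adjusted p = 0.047) at 6 months.

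Whether the genotype effect differed between the ages was tested over all 12 libraries as the effect at 6 months minus that at P36. Among the members 4 differences were positive and 5 negative by call, together 9 of 30, against 34.9% of the 13280 genes tested (13.8% positive and 21.1% negative), so the share of members was close to the share of all genes. The 5 with the largest size were Insig2 (1.41, SE 0.20, limma adjusted p = 0.00051), Dhcr7 (−1.32, SE 0.18, adjusted p = 0.000358), Idi1 (1.07, SE 0.27, adjusted p = 0.011), Srebf2 (−0.85, SE 0.22, adjusted p = 0.0112) and Fdps (−0.75, SE 0.18, adjusted p = 0.00889). Scap, Hsd17b7, Nsdhl and Mvk followed with differences of −0.70, 0.62, 0.61 and −0.53. Within the pathway the sign differed between close steps: it was positive for Idi1 and negative for Fdps, the next enzyme, and positive for Nsdhl and Hsd17b7 and negative for Dhcr7, downstream of them. The differences of Insig2, Dhcr7, Idi1, Srebf2 and Scap stayed called in all 18 alternatives. That of Mvk was lost in 9 of the 18, among them median-ratio scaling (adjusted p = 0.146) and leave-one-out fits, with adjusted p = 0.0585 to 0.0779 without control P36 replicate 3, DKO P36 replicate 1 or 3, control 6mo replicate 2 or 3, or DKO 6mo replicate 2 or 3. That of Hsd17b7 was lost in 7, with adjusted p = 0.0881 with keratin-free scaling and 0.0508 to 0.0647 without control P36 replicate 1, DKO P36 replicate 2, control 6mo replicate 2 or 3, or DKO 6mo replicate 1 or 2. That of Fdps was lost with median-ratio scaling (adjusted p = 0.0502) and that of Nsdhl with keratin-free scaling (0.0574).

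**Figure D3:**
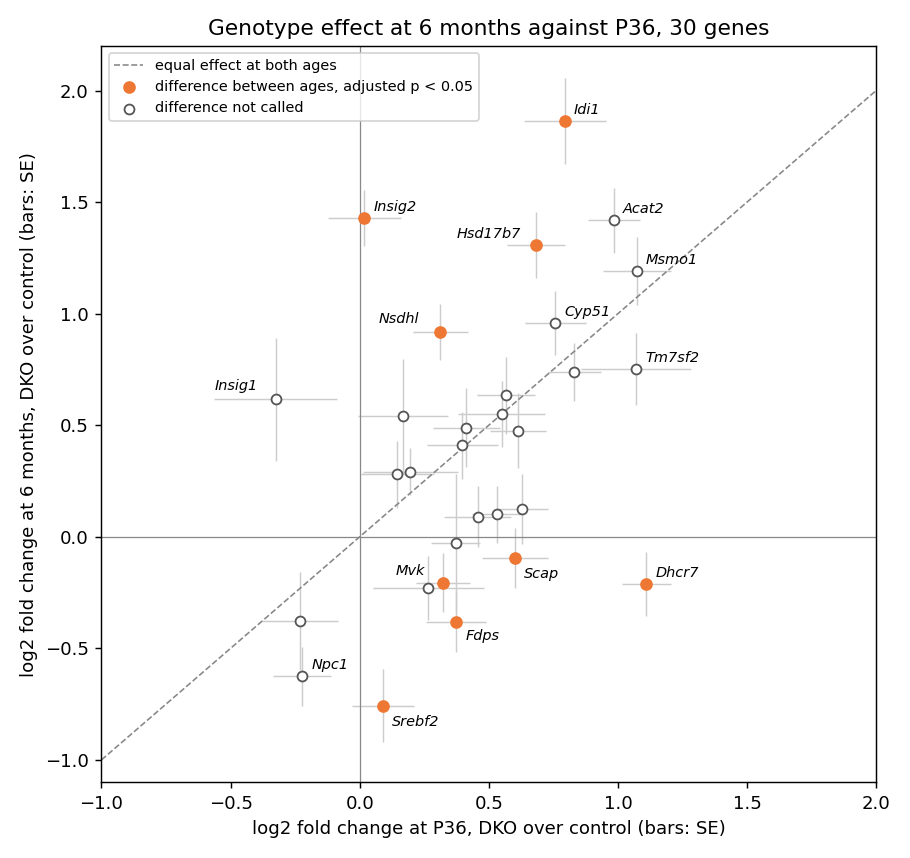
Genotype effect at 6 months (y axis) against P36 (x axis) for the 30 genes, both as log2 fold changes of the libraries labelled DKO over control with standard errors. Orange points are the 9 genes whose effect differed between the ages at an adjusted p of 0.05, and the dashed line marks equal effects. Insig2, Idi1, Hsd17b7 and Nsdhl lie above the line and Dhcr7, Srebf2, Scap, Fdps and Mvk below it.

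Levels at the 2 ages are set side by side without a test. In control, 15 of the 18 synthesis genes had a higher mean at 6 months than at P36, and in the libraries labelled DKO 12 of 18. The same count was not made over all genes, so these counts do not set the pathway apart. The summed FPKM of the 18 genes was 730.5 to 809 in the control libraries and 1055 to 1266 in those labelled DKO at P36, and 1099 to 1289 and 1632 to 2077 at 6 months. The 6-month control libraries thus reached the range of the P36 libraries labelled DKO. The make-up of the samples also differed between the ages. Summed hair shaft and inner root sheath markers were 21461 to 27805 FPKM in control at P36 and 2.14 to 13.4 at 6 months. Their part in the difference in levels was not tested. In control at 6 months Msmo1, Fdps and Hmgcs1 were the most abundant members, at 211, 196 and 169.5 FPKM. Sult2b1, at 107 FPKM, was second to Fdps in control at P36.

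DKO P36 replicate 2 was the lowest of its group in 14 of the 18 synthesis genes, against 36.5% of all genes with 3 different values, and DKO 6mo replicate 3 was the lowest of its group in 16 of 18, against 23.4%. Control P36 replicate 1 was the highest control library in 12 of 18 and control 6mo replicate 2 in 11 of 18, against 31.3% and 30.8%. Without DKO P36 replicate 2 the number of synthesis genes called higher at P36 was 15, and without DKO 6mo replicate 3 it was 12 at 6 months. In DKO 6mo replicate 3 the summed macrophage markers were 365 FPKM, against 81.4 and 101 in the other libraries of the group, and the summed dermal fibroblast markers 955 against 306 and 385 FPKM. Adipocyte markers summed there to 589 FPKM against 236 and 146, and skeletal muscle markers to 129.7 against 18.1 and 10.96. In DKO P36 replicate 2 the summed macrophage markers were 324 FPKM, against 396 and 258 in the other libraries of its group. Its summed dermal fibroblast markers were 1024 FPKM, against 1370 and 1416. Its adipocyte and skeletal muscle sums, 1297 and 283 FPKM, lay between those of the other libraries of its group. A link of these sums to the synthesis genes was not tested.

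**Figure D4:**
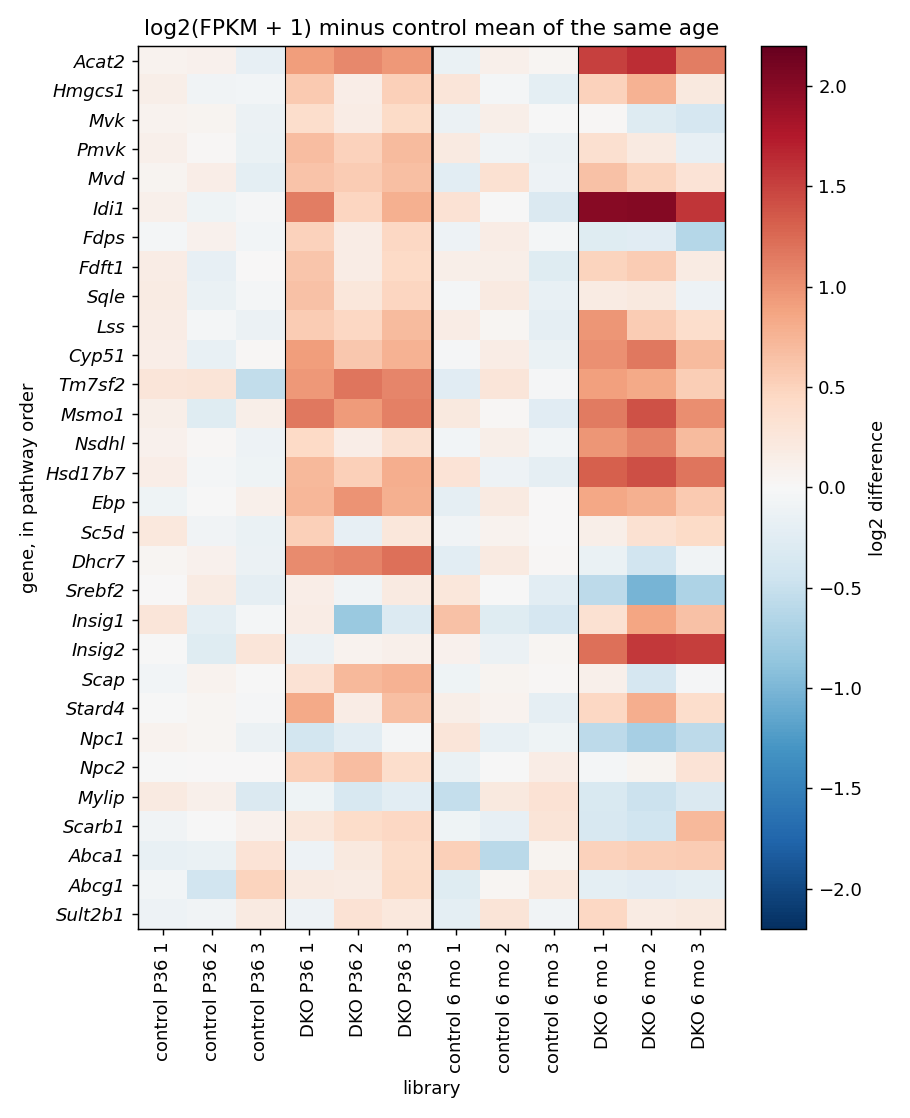
Each gene in each library, as log2(FPKM + 1) minus the mean of the 3 control libraries of the same age. Rows are the 30 genes in pathway order, columns the 12 libraries, red is above and blue below control. DKO P36 replicate 2 and DKO 6mo replicate 3 are paler than the other libraries of their groups in most of the 18 synthesis genes at the top.

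Markers of other cell types moved in the same libraries, and their part in these results was not tested. Of 12 sebaceous gland markers, from cells that make much lipid, 11 were tested at each age, of which 8 rose and 1 fell at P36 and 9 rose and 1 fell at 6 months. Their summed level was 392 to 507 FPKM in control and 774 to 1021 in the libraries labelled DKO at P36, and 399.8 to 607 and 1955 to 2017 FPKM at 6 months. In the libraries labelled DKO most of the sum was Krt79 and Mgst1, with means of 480 and 227 FPKM at P36 and 1011 and 411 at 6 months. The marker that fell was Scd3, with means of 8.33 and 2.32 FPKM at P36 and 105 and 24.6 at 6 months. Of 10 adipocyte markers, 9 of them tested at each age, 8 rose at P36 (745 to 1161 and 1134 to 1517 FPKM) and 0 were called at 6 months (116 to 681 and 146 to 589 FPKM). The P36 sums were mostly Fabp4, the tested marker that was not called. Fabp4 had 740, 700 and 1077 FPKM in control and 778, 793 and 606 in the libraries labelled DKO at P36. Apart from Plin1, taken up below, the markers that rose had P36 means from 4.34 (Lpl) to 14.3 (Retn) times the control mean. All 8 macrophage markers rose at P36 (52.3 to 69.7 and 258 to 396 FPKM) and 0 rose and 1 fell at 6 months (81.0 to 136 and 81.4 to 365 FPKM). Of 10 skeletal muscle markers 9 were tested at P36 and 8 called higher (14.8 to 28.4 and 120 to 493 FPKM). Myh1, Myh4 and Actn3 among these, and Plin1 among the adipocyte markers, were below 1 FPKM in every control library and passed the filter only through the libraries labelled DKO, which leaves 5 and 7 calls. At 6 months 5 muscle markers were tested and 0 called (9.61 to 56.9 and 10.96 to 129.7 FPKM). Of 8 dermal fibroblast markers 4 rose at P36 (574 to 1169 and 1024 to 1416 FPKM) and 0 of 8 were called at 6 months. All 7 hair shaft and inner root sheath markers with values fell at P36 (21461 to 27805 and 9631 to 13166 FPKM) and stood at 1.55 to 20.1 FPKM per library at 6 months, where 1 was tested and 0 called. The summed keratinocyte markers were 6711 to 9511 FPKM in control and 11654 to 14453 in the libraries labelled DKO at P36, and 13423 to 18177 and 11092 to 13464 FPKM at 6 months. Of these 8 markers 3 rose and 0 fell at P36, namely Krt14, Krt1 and Krt10. At 6 months 1 rose, Krt1, and 3 fell, Krt5, Krt10 and Dsp. No marker with a value was at 0 in all libraries of an age.

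Of 34 further genes of sterol synthesis, regulation, trafficking and oxysterol metabolism, 31 passed the filter on low values at P36, of which 13 rose and 0 fell, beside 18% and 5.32% of all genes tested. At 6 months 32 passed, of which 8 rose and 5 fell, close to the 23.2% and 18.2% of all genes tested. Cyp7b1, which hydroxylates oxysterols, was at 0.0867 and 1.72 FPKM at P36 and at 0.227 and 4.85 FPKM at 6 months, in control and in the libraries labelled DKO. Every control library was below 1 FPKM for Cyp7b1, so it passed the filter only through the libraries labelled DKO, and its values are a description. The counts above include it, and at 6 months Ch25h, the gene of a sterol hydroxylase, counted among the lower calls, which passed only through the control libraries. Nr1h3, the liver X receptor alpha that macrophages express strongly, went from 1.25 to 4.99 FPKM at P36 (adjusted p = 0.000448 by limma). At 6 months it averaged 1.96 and 3.25 FPKM and was not called (limma adjusted p = 0.138), and the difference between the ages was −0.88 (adjusted p = 0.038). Aacs, the synthetase that turns acetoacetate into a sterol precursor, rose by 0.85 on the log2 scale at P36 and was not called at 6 months (limma adjusted p = 0.285). Stard5, a sterol carrier related to Stard4, rose at both ages, by 0.65 and 1.02.

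Some members share exonic bases with another protein-coding gene in GENCODE M21 (GRCm38), and whether the authors counted by strand is not known from the sources used here; reads of both genes cannot be told apart there. Fdft1 shares 774 of 4227 exonic bases with Ctsb on the opposite strand, Npc1 511 of 11317 with Rmc1, Cyp51 166 of 4415 with Akap9 and Sult2b1 243 of 3950 with Lmtk3. On the same strand, Fdps shares 1124 of 4208 bases with Gm43738 and Tm7sf2 532 of 4403 with Vps51. The values of these 6 members are uncertain to that extent. By the q-values of the authors' deposited table, 29 of 30 members passed 0.05 at each age. Over all genes with a q-value, 69.9% passed at P36 and 80.6% at 6 months. Those shares cover 17004 and 16902 genes without the filter on low values, which all 30 members passed, so the sets are unlike. The exceptions among the members were Insig2 at P36 (q = 0.245 in the authors' deposited table) and Scarb1 at 6 months (q = 0.0573 there).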

How the data were processed

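RNA from 12 dorsal epidermis samples was depleted of ribosomal RNA and sequenced as single-end reads, per the labels' protocols. The submitters' processing notes name HISAT2 2.1.0 and RSEM 1.2.8 and the human builds GRCh38 and hg38, although the samples are labelled mouse; gene numbers matched mouse symbols for 19343 of 19392 genes at P36 and 17712 of 17750 at 6 months. The authors deposited FPKM per gene and library in a table for each age. The same tables hold the authors' log2 fold changes and their p-values and q-values, made with a test that the sources used here do not name. The age of each table was read from its name. No read counts were used, and the number of reads is unknown.

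FPKM values were tested as log2(FPKM + 1) with limma 3.58.1 in R 4.3.3 (trended variance), on genes at 1 FPKM or more in at least 3 libraries, and p-values were adjusted over all genes tested by the Benjamini-Hochberg method. An adjusted p under 0.05 made a call. Fold changes on this scale understate the change of low genes. The 2 ages were fitted separately, on 6 libraries each, and the difference between ages on all 12. The fit was run on simulated data with independent normal noise on the log2 scale. That setting does not cover effects shared by a library or replicates that are not independent. The labels do not say whether replicate numbers pair the libraries. Correlations of same-numbered deviations ran from −0.115 to 0.183 and those of different numbers from −0.206 to 0.234, which cannot settle it. Alternatives were a pseudocount of 0.1, no filter, a filter at 5 FPKM, median-ratio scaling, totals without keratins and cornified envelope genes, the replicate number as a block, a joint fit of 12 libraries and leaving out each library.

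The members, gene lists and tests were chosen with earlier results of these data known. All 30 members are named; values in every library are given for members called at both ages or in the difference, and for the 4 with the smallest adjusted p per age and direction. Insig1 at both ages and Scarb1 at 6 months were added after their values were seen. Of the other pathway genes, those with the smallest p per age were named, and Aacs and Stard5 are among them; some genes of the pathway are counted but not reported by name here. Promoter windows are from RefSeq (GRCm38.p6), and exons from GENCODE M21.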

Additional observations from a re-analysis of the deposited data

Results flagged for a closer look

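The genotype effect of 9 members differed between the ages by limma's test of the difference (effect at 6 months minus effect at P36, on the log2 scale, adjusted over 13280 genes, of which 34.9% were called). It was higher at 6 months for Insig2 (1.41), Idi1 (1.07), Hsd17b7 (0.62) and Nsdhl (0.61). It was lower at 6 months for Dhcr7 (−1.32), Srebf2 (−0.85), Fdps (−0.75), Scap (−0.70) and Mvk (−0.53). Insig2, Dhcr7, Idi1, Srebf2 and Scap stayed called in each of the 18 alternatives run for the difference.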

How the results depend on the processing

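The number of members called stayed within 1.5 times its value under every alternative run. It was 16 at P36 (13 to 17 when a library was left out, 13 to 17 otherwise), 13 at 6 months (11 to 18 and 12 to 17) and 9 for the difference between ages (7 to 11 and 8 to 10). Of the 29 calls at the 2 ages, 23 held in every alternative, and no called member changed sign. The replicate number as a block gave 17, 15 and 10 calls. Under the block Hmgcs1 (limma adjusted p = 0.0439 and 0.0419) and Fdft1 (0.0293 and 0.0256) were called higher at P36 and 6 months, and Stard4 at P36 (0.0632) and the difference of Mvk (0.074) were not called. The difference between ages had 4 positive and 6 negative calls under the block, against 4 and 5 without it. Members not named here were therefore newly called negative in the difference. Whether the numbers pair the libraries is not known, and not every library correlated best with its own number.

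Members that were not called changed sign in 14 cases, of which the cause was not tested. With median-ratio scaling the log2 fold changes at P36 were −0.042 for Srebf2 and −0.11 for Insig2. With keratin and cornified envelope genes left out of the totals they were −0.041 for Insig2 at P36 and −0.064 for Pmvk, −0.10 for Sqle and −0.083 for Npc2 at 6 months. When a library was left out, the range was −0.0055 to 0.18 for Srebf2 and −0.11 to 0.15 for Insig2 at P36, and −0.20 to 0.039 for Scap and −0.40 to 0.18 for Scarb1 at 6 months. With median-ratio scaling the share of called differences between ages that were positive went from 39.5% to 54.7% of all calls, and with the keratin-free totals to 28%; for synthesis genes the positive and negative counts went from 3 and 3 to 4 and 1, and to 1 and 4. Limits are 3 libraries a group, an unknown depth and normalized values without counts, so that a low gene cannot be told from a thinly sampled one.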
